A study of Homo sapiens with 12 samples.

Results

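The genes described here act in the passage from the G1 phase into DNA synthesis, in copying the genome and in mitosis. The set holds 53 genes. It takes in every probe whose gene symbol is one of the 53 names, with platform symbols replaced by RefSeq symbols where available. It was divided by role into 11 genes of the G1/S transition, 21 of DNA replication and 21 of mitosis. The array names 20046 genes in all, of which 9780 had a detected probe. Of the 53 genes 48 had one, namely 9 of the G1/S genes, 19 of the replication genes and 20 of the mitosis genes.

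Total RNA from 12 samples of PANC-1, an established line of human pancreatic ductal carcinoma cells, was hybridised to Illumina bead arrays with 47323 probes. In 6 samples, titled WildType and called control here, the cells carried an integrated pLKO.1 puro lentiviral vector. In the other 6, titled TIMP1_KD and called knockdown here, the vector carried a short hairpin RNA against human TIMP1, a secreted inhibitor of metalloproteinases. Both groups grew in medium with 10% FCS and 1 µg/ml puromycin, so the controls are vector-bearing cells and not untreated PANC-1 cells. All samples come from 1 cell line in culture, and neither the hairpin's sequence nor whether a line is 1 clone is stated in the sources used here. The labels number replicates 1 to 6 in each group and do not say whether each is its own culture; the spread behind every p-value is that between these samples and may be technical.

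In dividing cells, cyclin D and cyclin E kinases inactivate the retinoblastoma protein, which frees E2F transcription factors to switch on the genes of DNA synthesis. Replication origins are then licensed by loading the MCM helicase and fired by assembling the CDC45-MCM-GINS motor. Genes of mitosis are transcribed later, through promoters with a cell cycle homology region, or CHR, which the MuvB complexes bind. Transcript levels of many genes of replication and mitosis are widely used as a measure of how much of a culture is cycling.

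Detected probes numbered 15681 to 16565 on the controls and 15898 to 17680 on the knockdown arrays, with knockdown 6 and knockdown 2 highest. The mean count was 16160 on the controls and 16861 on the knockdown arrays (exact two-sided permutation p = 0.0498). TIMP1 lay between 13.64 and 13.86 in normalised log2 intensity on the controls and between 13.49 and 13.63 on the knockdown arrays. Its log2 fold change, knockdown minus control here and throughout, was -0.19 with an adjusted p of 0.101 (limma, Benjamini-Hochberg), and the groups did not overlap (exact two-sided permutation p = 0.00216, the smallest that 6 arrays against 6 can give). The raw signal of the TIMP1 probe lay between 10918 and 15949, where the highest signal of any probe was 19220, and whether the probe was near saturation was not tested. A weak knockdown and a bright probe that compresses the difference therefore cannot be told apart, and the comparisons that follow are between samples whose difference in TIMP1 is known only this far. Of the duct epithelium markers KRT7, KRT8, KRT18, KRT19, SOX9 and EPCAM, all 6 were detected. Of the fibroblast markers 0 of 6 were detected. Of the acinar and islet markers 2 of 9 were (PRSS1 and CELA3A), and of the leukocyte and endothelial markers 3 of 9 (CD14, CD68 and PECAM1). By limma 0 of the marker probes passed the test. The 2 acinar markers had log2 fold changes of -0.45 and -0.19, with a smallest limma adjusted p of 0.118. In 1 of these 2 probes the groups did not overlap, against 1.56% of all detected probes.

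None of the cell cycle and replication genes passed the test. By limma, 0 of their 67 detected probes reached a Benjamini-Hochberg adjusted p under 0.05, where 50 of all 16495 detected probes, or 0.303%, did. An unadjusted p under 0.05 was found for 5 of the 67, or 7.46%, against 14.5% of all detected probes. The 5 probes belonged to CDKN1B, which was lower in the knockdown, and to CDT1, CDC45, PLK1 and NUF2, which were higher. In 0 of the 67 probes did the knockdown arrays lie wholly beyond the control arrays, against 1.56% of all detected probes. The difference from the shares of all probes was not tested. Without the detection filter, 9 of all 77 probes of the set, or 11.7%, had an unadjusted p under 0.05, against 9.38% of all probes. In bulk RNA, a difference in the share of cycling cells and one in transcript per cycling cell cannot be told apart.

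The measured differences were small and closely bounded. Judged by the brightest detected probe of each gene, log2 fold changes ran from -0.20 to 0.15 over the 48 genes, with 29 above and 19 below 0. Their median was 0.02, as was the median of all 9780 detected genes, of which 5580 lay above and 4200 below 0. By role the median was 0.03 for the G1/S genes, 0.01 for the replication genes and 0.03 for the mitosis genes. All 48 confidence intervals (95%, limma) stayed within a 1.5-fold difference in either direction, as did those of 9180 of the 9780 genes. Within 1.25-fold lay 46 of the 48, or 95.8%, against 75.1% of all genes, and the exceptions were E2F1 and BUB1B. Within 1.1-fold lay 22 of the 48, against 2177 of all 9780 genes. The probes of the set were bright, with a median log2 intensity of 11.06 against 9.24 over all detected genes, and the part of brightness in the narrow intervals was not tested.

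**Figure D1:**
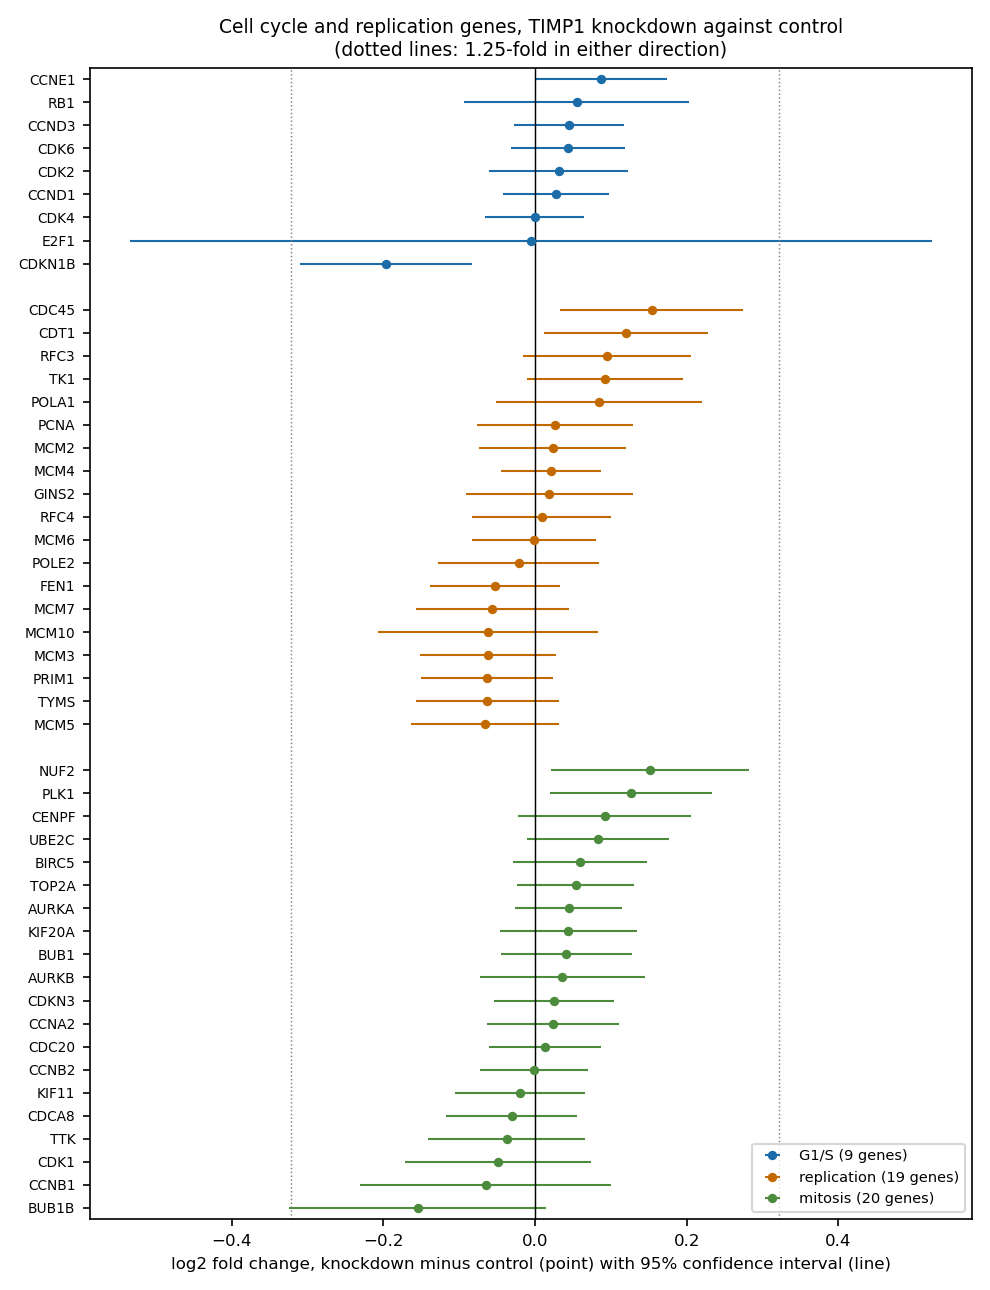
Log2 fold change of each of the 48 detected genes, knockdown minus control, on the horizontal axis (point) with its 95% confidence interval (line), by role. All points lie between -0.20 and 0.15, and only the intervals of E2F1 and BUB1B cross the dotted lines at 1.25-fold.

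The promoters of the 3 role groups carried different sequence words. The RefSeq promoter table (assembly GRCh38.p14, 250 bases before to 50 bases after each start site) held 43 of the 53 genes, and the first start site listed for a gene was read on both strands. Searched were the E2F words TTTCCCGC, TTTCGCGC, TTTGCCGC and TTTGGCGC, the CHR words TTTGAA and TTCGAA, and CCAAT, the word that the factor NF-Y recognises. An E2F word stood in 13 of 19 promoters of replication genes, 1 of 7 of G1/S genes (E2F1), 1 of 17 of mitosis genes (CDK1) and 3.33% of all 27305 promoters. A CHR word stood in 13 of the 17 promoters of mitosis genes, 1 of the 19 of replication genes (MCM6), 0 of the 7 of G1/S genes and 16.6% of all. CCAAT stood in 15 of 17 promoters of mitosis genes, 11 of 19 of replication genes, 2 of 7 of G1/S genes and 35.7% of all. With any listed start site of a gene, an alternative chosen after seeing the data, the E2F and CHR counts of the 3 groups were the same, and CCAAT was found in 12 replication and 3 G1/S genes. Over all genes of the table the shares were then 3.99% for E2F, 19.5% for CHR and 39.7% for CCAAT. A match is a description of the letters and not a binding site, and forms other than these exact words were not searched. CCND1, CCND2, CCNE2, CDK2, MCM4, MCM5, AURKA, TTK, BIRC5 and UBE2C were not analysed here for these words.

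**Figure D2:**
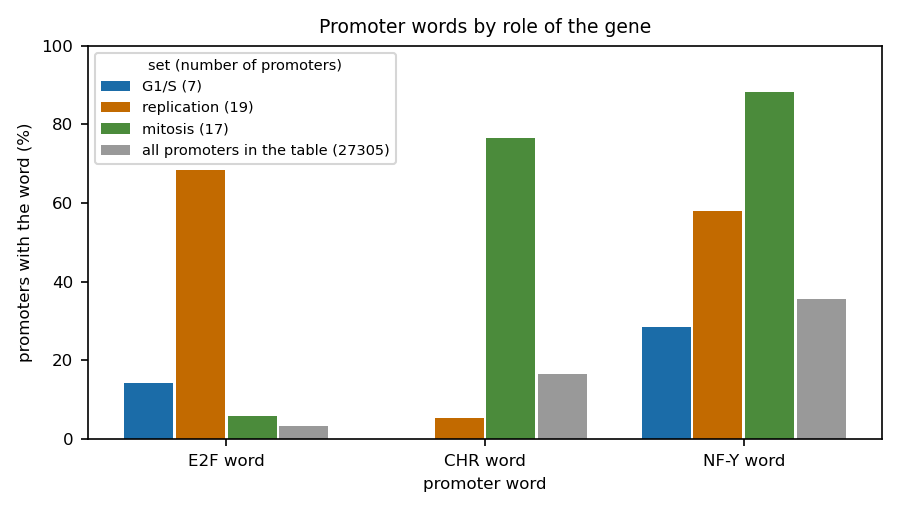
Percentage of promoters (vertical axis) that hold an E2F word, a CHR word or CCAAT, the NF-Y word, in each role group and in all 27305 promoters of the RefSeq table. The E2F bar is highest for replication genes (68.4%) and the CHR bar for mitosis genes (76.5%).

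The promoters of the 5 genes with an unadjusted p under 0.05 are shown because these genes came nearest to the threshold and show how the words are placed. Each runs 5′ to 3′ along the gene's strand, here the plus strand in every case, with 250 bases before the start site and with matched words in capitals, and positions count the start site as 1 and the base before it as -1. CDT1, at chr16:88803539-88803838, had 1 E2F word, GCGGGAAA, the reverse complement of TTTCCCGC, whose first base lies at position -35 from the start site. PLK1, at chr16:23678639-23678938, had a CCAAT at position -73 and a CHR word at position -29. NUF2, at chr1:163321704-163322003, had a CHR word at position 17, after the start site, and no CCAAT. CDC45, at chr22:19479670-19479969, had 4 CCAAT words, 1 of them read on the minus strand as ATTGG, and neither of the other words. CDKN1B, at chr12:12717118-12717417, had 3 CCAAT words and neither of the others. 
CDT1: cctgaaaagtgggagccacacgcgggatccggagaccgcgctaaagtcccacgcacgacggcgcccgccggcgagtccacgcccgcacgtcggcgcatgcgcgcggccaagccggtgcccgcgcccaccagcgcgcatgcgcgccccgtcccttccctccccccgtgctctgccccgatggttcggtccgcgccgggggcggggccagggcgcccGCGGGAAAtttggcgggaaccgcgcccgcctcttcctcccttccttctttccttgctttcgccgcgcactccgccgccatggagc
PLK1: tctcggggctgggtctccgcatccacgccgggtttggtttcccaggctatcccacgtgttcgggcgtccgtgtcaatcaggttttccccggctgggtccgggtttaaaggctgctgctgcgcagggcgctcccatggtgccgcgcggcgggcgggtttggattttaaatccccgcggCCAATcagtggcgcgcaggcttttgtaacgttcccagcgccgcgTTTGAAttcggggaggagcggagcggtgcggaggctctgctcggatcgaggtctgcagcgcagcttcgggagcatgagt
NUF2: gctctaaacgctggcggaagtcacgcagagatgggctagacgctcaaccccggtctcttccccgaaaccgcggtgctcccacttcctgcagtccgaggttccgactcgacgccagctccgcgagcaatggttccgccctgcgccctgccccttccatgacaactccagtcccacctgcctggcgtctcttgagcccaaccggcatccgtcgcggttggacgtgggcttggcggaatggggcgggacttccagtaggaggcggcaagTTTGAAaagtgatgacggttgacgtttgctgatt
CDC45: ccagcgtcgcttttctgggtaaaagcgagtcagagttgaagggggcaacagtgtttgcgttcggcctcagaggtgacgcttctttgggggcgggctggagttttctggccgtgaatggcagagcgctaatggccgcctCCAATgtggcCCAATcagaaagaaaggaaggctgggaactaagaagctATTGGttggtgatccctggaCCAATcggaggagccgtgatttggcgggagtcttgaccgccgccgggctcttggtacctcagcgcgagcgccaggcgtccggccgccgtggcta
CDKN1B: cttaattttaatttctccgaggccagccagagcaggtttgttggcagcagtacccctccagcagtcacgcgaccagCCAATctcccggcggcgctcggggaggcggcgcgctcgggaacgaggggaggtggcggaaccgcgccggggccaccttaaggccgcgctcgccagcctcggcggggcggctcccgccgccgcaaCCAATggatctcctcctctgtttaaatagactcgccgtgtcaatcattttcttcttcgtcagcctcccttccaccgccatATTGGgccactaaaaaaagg

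Among the G1/S genes the largest difference was that of CDKN1B, which encodes p27, an inhibitor of cyclin E and cyclin A kinases. Its normalised log2 intensity was 9.28 at the lowest, 9.43 at the median and 9.51 at the highest on the 6 control arrays, and 9.10, 9.19 and 9.31 on the 6 knockdown arrays. The groups overlapped by few arrays: control 6, the lowest control, lay below knockdown 2 and knockdown 6, and all other controls lay above every knockdown array. The log2 fold change was -0.20 ± 0.05 (SE, n = 6 per group; interval -0.31 to -0.08), with an unadjusted p of 0.00266 and a Benjamini-Hochberg adjusted p of 0.157 in limma (exact two-sided permutation p = 0.00866). With scaling by the median alone, which put the median of all detected genes at 0.13, it was -0.07. A second, dimmer probe of CDKN1B had -0.06 (interval -0.21 to 0.10), with controls from 8.88 to 9.18 and knockdown arrays from 8.74 to 9.12.

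CCNE1, cyclin E1, the partner of CDK2 at the start of S phase, lay at 9.62, 9.72 and 9.76 (lowest, median and highest) on the controls and at 9.74, 9.78 and 9.90 on the knockdown arrays. Its log2 fold change was 0.09 (interval -0.00 to 0.17; limma adjusted p = 0.348), and controls 3 and 5 lay inside the knockdown range while the other 4 controls lay below it. CCND3, cyclin D3, lay between 11.98 and 12.08 on the controls and between 12.02 and 12.13 on the knockdown arrays, with 0.04 (adjusted p = 0.564 in limma). The other parts of the cyclin D module were as close. CCND1, cyclin D1, had a log2 fold change of 0.03 (interval -0.04 to 0.10), and the kinase CDK6 had 0.04 (interval -0.03 to 0.12). CDK4, the other cyclin D kinase, lay between 12.43 and 12.51 in both groups, with a median of 12.48 in each, and its interval ran from -0.07 to 0.06. CDK2, the cyclin E kinase, had 0.03 on its brighter and -0.03 on its dimmer probe. RB1, the retinoblastoma protein that these kinases phosphorylate, had 0.05 (interval -0.09 to 0.20).

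E2F1, the transcription factor released from RB1, was the 1 gene of the set whose level these arrays bound poorly. It lay at 6.86, 8.09 and 8.42 on the controls and at 7.56, 7.92 and 8.24 on the knockdown arrays. Control 1 was the lowest of all 12 arrays, controls 5 and 6 were the highest, and the knockdown range lay inside the control range. The log2 fold change was -0.01 (interval -0.53 to 0.52), with a pooled SD of 0.46. Without control 1 it was -0.22, and in a fit with each array's count of detected probes as a covariate it was 0.40. The 19 detected replication genes, which include E2F targets, had intervals that all lay between -0.21 and 0.27.

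**Figure D3:**
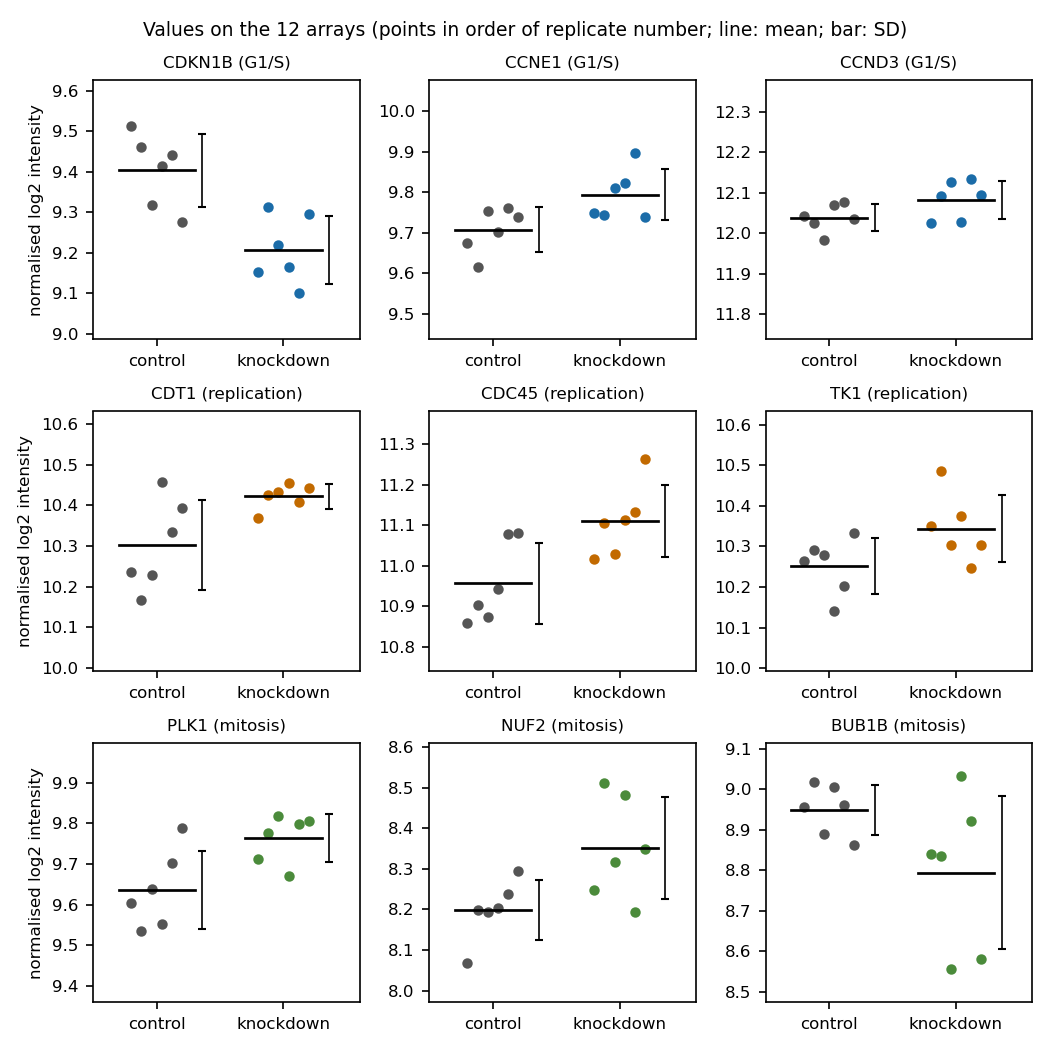
Normalised log2 intensity (vertical axes, each with its own range of values) of the 9 members described in full, on 6 control and 6 knockdown arrays, with the group mean (line) and SD (bar). The groups overlap in every panel, and the CDKN1B points come closest to separating.

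Among the replication genes, CDT1, which loads the MCM helicase onto origins, lay at 10.17, 10.28 and 10.46 on the controls and at 10.37, 10.43 and 10.46 on the knockdown arrays. Controls 1, 2, 3 and 5 lay below every knockdown array, control 6 lay among them and control 4 lay above them all. The controls were the more scattered group, with an SD of 0.11 against 0.03. The log2 fold change was 0.12 ± 0.05 (SE; interval 0.01 to 0.23), with a limma adjusted p of 0.301 and an exact permutation p of 0.0346. CDC45, a subunit of the active helicase, lay at 10.86, 10.92 and 11.08 on the controls and at 11.02, 11.11 and 11.26 on the knockdown arrays. Controls 1 to 4 lay below every knockdown array, and controls 5 and 6 lay above knockdown 1 and knockdown 3. CDC45 had the largest positive difference of the 48 genes, 0.15 ± 0.06 (SE; interval 0.03 to 0.27; limma adjusted p = 0.256; exact permutation p = 0.0238). Without knockdown 2 and knockdown 6 it was 0.12.

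The 6 subunits of the MCM2-7 ring, the helicase that is loaded at origins, had small differences in both directions. Their log2 fold changes on the brightest probes were 0.02 for MCM2, -0.06 for MCM3, 0.02 for MCM4, -0.07 for MCM5, -0.00 for MCM6 and -0.06 for MCM7. The widest of these 6 intervals on either side reached -0.16 (MCM5) and 0.12 (MCM2). MCM4 was among the most evenly measured genes of the set, between 11.38 and 11.47 on the controls and between 11.43 and 11.49 on the knockdown arrays. MCM3 had knockdown 6 at 12.83, apart from the next knockdown array at 12.67. All knockdown arrays but that one lay below every control, the lowest control being at 12.70. Over the alternatives its smallest limma adjusted p was 0.341, without knockdown 6. The second probe of MCM3 had -0.07, that of MCM4 had -0.01, and the 3 probes of MCM7 ran from -0.09 to -0.05. MCM10, which binds the loaded helicase, had -0.06 on its brighter and 0.09 on its dimmer probe. GINS2, a subunit of the GINS complex that joins CDC45 and MCM2-7, had 0.02 (interval -0.09 to 0.13).

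The genes of DNA synthesis itself gave the same picture of small differences in both directions. TK1, thymidine kinase, which salvages thymidine for DNA synthesis, lay at 10.14, 10.27 and 10.33 on the controls and at 10.25, 10.33 and 10.49 on the knockdown arrays, with knockdown 1, 2 and 4 above every control. Its log2 fold change was 0.09 (interval -0.01 to 0.20; limma adjusted p = 0.394). TYMS, thymidylate synthase, which makes thymidylate anew, had -0.06 (interval -0.16 to 0.03). PCNA, the sliding clamp of the replicative polymerases, had 0.03 on its brightest probe and -0.05 on the next. Of the clamp loader subunits, RFC3 had 0.09, 0.03 and 0.06 on its 3 probes and RFC4 had 0.01 and 0.06 on its 2. POLA1, the catalytic subunit of the polymerase that starts each strand, had 0.08 (interval -0.05 to 0.22). PRIM1, the primase subunit of the same enzyme, had -0.06 on both of its probes. POLE2, a subunit of the leading strand polymerase, had -0.02, and FEN1, the nuclease that trims Okazaki fragments, had -0.05 and -0.02 on its 2 probes.

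Among the mitosis genes, PLK1, a kinase of mitotic entry and spindle assembly, lay at 9.53, 9.62 and 9.79 on the controls and at 9.67, 9.79 and 9.82 on the knockdown arrays. As for CDC45, controls 1 to 4 lay below every knockdown array and controls 5 and 6 lay inside the knockdown range. The log2 fold change was 0.13 ± 0.05 (SE; interval 0.02 to 0.23; limma adjusted p = 0.275; exact permutation p = 0.0281). NUF2, part of the NDC80 complex that ties microtubules to the kinetochore, lay at 8.07, 8.20 and 8.30 on the controls and at 8.19, 8.33 and 8.51 on the knockdown arrays of its brightest probe. Controls 1 and 3 lay below every knockdown array and the other 4 lay inside their range. That probe had 0.15 ± 0.06 (SE; interval 0.02 to 0.28; limma adjusted p = 0.284; exact permutation p = 0.0238). The second probe of NUF2, nearly as bright, had -0.08 (interval -0.23 to 0.08), and the third was not detected, so the sign of NUF2 depended on the probe. With the authors' processed values the brightest probe had 0.10.

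BUB1B, the checkpoint kinase BUBR1, lay at 8.86, 8.96 and 9.02 on the controls and at 8.56, 8.84 and 9.03 on the knockdown arrays. Knockdown 3 and knockdown 6 were lowest at 8.56 and 8.58, knockdown 1 and 2 also lay below every control, and knockdown 4 lay above them all. The log2 fold change was -0.15 (interval -0.32 to 0.01; limma adjusted p = 0.384), with an SD of 0.19 in the knockdown. Its checkpoint partners BUB1 and TTK, the kinase MPS1, had 0.04 and -0.04, and CDC20, the activator of the anaphase-promoting complex that this checkpoint restrains, had 0.01 (interval -0.06 to 0.09).

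The cyclins and the kinase of mitotic entry did not differ by more than their spread. CCNA2, cyclin A2, had a log2 fold change of 0.02, CCNB1, cyclin B1, had -0.07 and CCNB2, cyclin B2, had -0.00. CCNB1 was the least evenly measured of the 3, with knockdown 2 lowest at 9.92 and control 5 highest at 10.43. CDK1, the kinase they activate, had -0.05 and -0.04 on its 2 probes, and CDKN3, a phosphatase of cyclin-dependent kinases, had 0.03. The Aurora kinases AURKA and AURKB, of the spindle poles and of the chromosomal passenger complex, both had 0.04 on their brightest probes. BIRC5, or survivin, and CDCA8, or borealin, which belong to the same passenger complex as AURKB, had 0.06 and -0.03.

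TOP2A, the topoisomerase that untangles sister chromatids, had 0.05 (interval -0.02 to 0.13), and CENPF, a kinetochore protein, had 0.09 (interval -0.02 to 0.21). With the number of detected probes as a covariate CENPF had 0.03. The mitotic motors KIF11 and KIF20A had -0.02 and 0.04. UBE2C, the ubiquitin-conjugating enzyme of the anaphase-promoting complex, had 0.08 (interval -0.01 to 0.18; limma adjusted p = 0.397) on its brightest probe and 0.02 on the other.

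The 5 genes of the set without a detected probe were CCND2, CCNE2, CDC6, GINS1 and MKI67. CCND2, cyclin D2, was not detected on any of the 12 arrays by either of its 2 probes, nor was CCNE2, cyclin E2, by its 1 probe. GINS1, another GINS subunit, was detected on control 6, knockdown 4 and knockdown 6, and lay between 6.09 and 6.69 on the controls and between 5.92 and 6.50 on the knockdown arrays. CDC6, which recruits the MCM helicase with CDT1, and MKI67, the proliferation marker Ki-67, were detected on knockdown 2 and knockdown 6 alone, the 2 arrays with the most detected probes. CDC6 lay between 5.83 and 6.22 on the controls and between 6.17 and 6.48 on the knockdown arrays. MKI67 lay between 5.97 and 6.24 on the controls and between 6.23 and 6.70 on the knockdown arrays.

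For both genes the groups thus met at their edges, close to the background of the array. In a limma fit over all 47323 probes, an alternative without the detection filter, MKI67 had a log2 fold change of 0.31 (adjusted p = 0.297) and CDC6 one of 0.23 (adjusted p = 0.340). Without knockdown 2 and knockdown 6, in a fit chosen after seeing the data, MKI67 had 0.19 (limma adjusted p = 0.597) and CDC6 had 0.15 (adjusted p = 0.704). The part of the number of detected probes in these values was not tested.

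Several genes were measured more than once, which gives a check of the sizes above. Of the 77 probes of the set 67 were detected, and 17 genes had several detected probes. For 5 of them, CDK2, MCM4, MCM10, NUF2 and PCNA, detected probes gave log2 fold changes of opposite sign. The largest gap between probes of a gene was 0.23, for NUF2, which exceeds the difference of any detected gene of the set on its brightest probe. Probes of a gene can read different transcripts, and which of them each probe reads was not analysed here.

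Across the arrays of a group the set varied little, and its genes shared little of that variation on average. The median SD within groups was 0.06 for the G1/S genes, 0.07 for the replication genes and 0.06 for the mitosis genes, against 0.11 over all detected genes. The comparison was not matched for brightness, where the set had a median of 11.06 against 9.24, and the part of brightness was not tested. The most evenly measured genes were CDK4 and MCM4, both with an SD of 0.03, and the least were E2F1 at 0.46, BUB1B at 0.14 and CCNB1 at 0.14. After group means were removed, the mean pairwise correlation over the 12 arrays was 0.13 within the G1/S genes, 0.03 within the replication genes and 0.09 within the mitosis genes, against 0.01 over all detected genes. Single pairs of members ran from -0.85 (MCM5 with RFC4) to 0.86 (PRIM1 with TK1). These points share their arrays and their normalisation, and the values are a description.

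**Figure D4:**
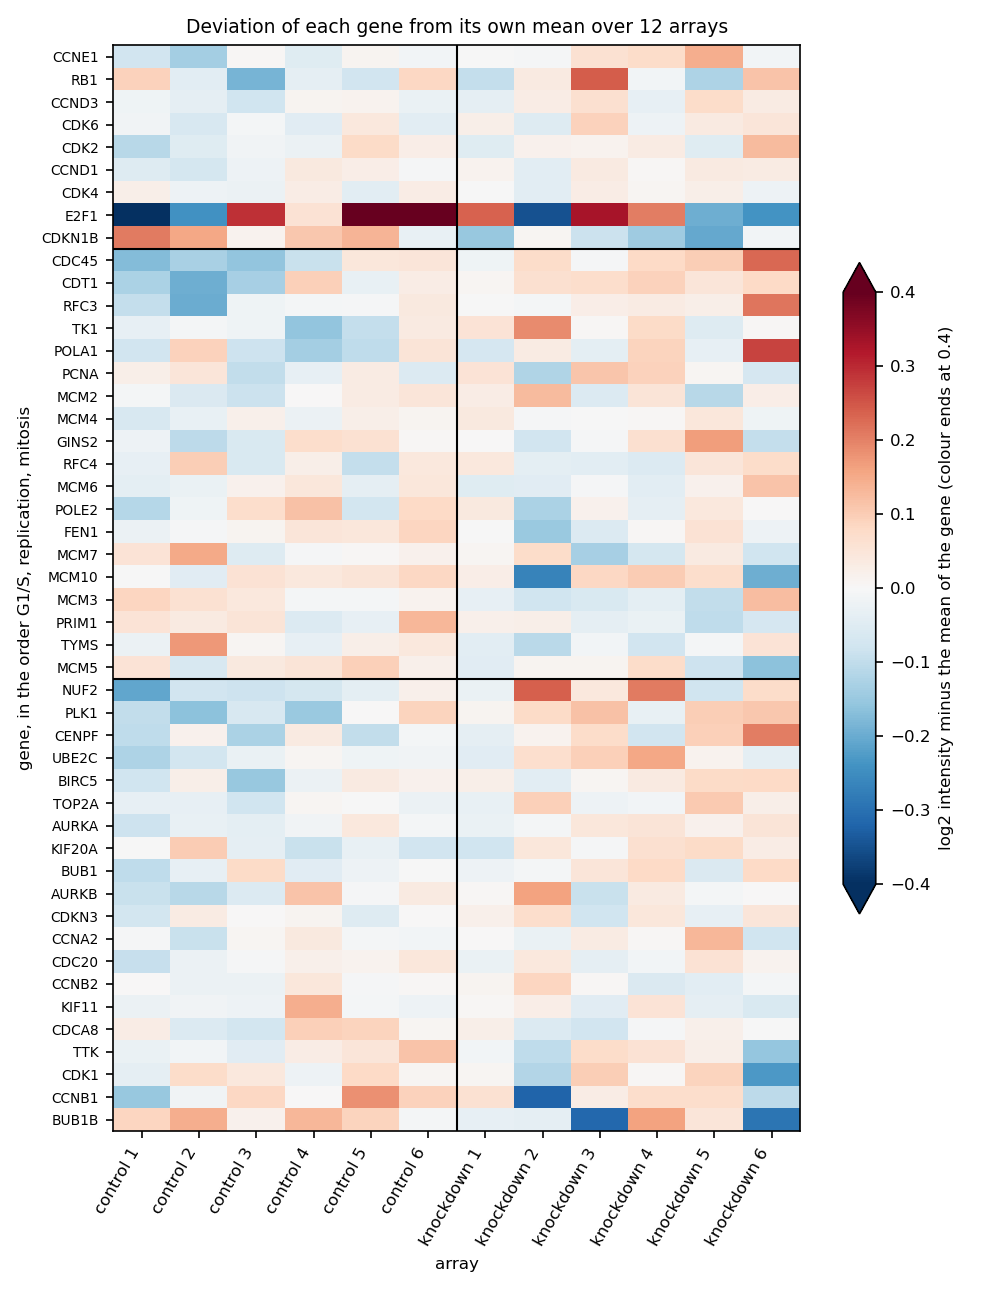
Deviation of each of the 48 detected genes (vertical axis, by role) from its own mean on each of the 12 arrays (horizontal axis), in log2 units, with the colour scale ending at 0.4. E2F1 has the strongest colours, and each role group shows both colours on control and on knockdown arrays.

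A few arrays lay at an end of the range in the median of a role. On control 1 the median deviation of the mitosis genes from their own means was -0.08, and 3 of the 20 lay above their mean. The 6 knockdown arrays had medians from -0.01 to 0.04 for these genes. Control 1 was also the lowest array for the replication genes, at -0.02, with 5 of 19 above their mean. On control 6 the replication genes had a median of 0.04, with 18 of 19 above their mean, the highest of the 12 arrays. On knockdown 3 the G1/S genes had a median of 0.06, with 8 of 9 above their mean. By the rule for single samples given further below, none of these role medians was flagged. Counted over all 48 genes, 11 to 33 lay above their mean on a control array and 23 to 31 on a knockdown array. The knockdown range thus lay inside the control range, but the means of the role medians were higher in the knockdown. For the mitosis genes they were -0.020 on the controls and 0.020 on the knockdown arrays. The G1/S genes had -0.008 and 0.019, the replication genes -0.003 and 0.009 and all detected genes -0.009 and 0.010. These differences were not tested.

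**Figure D5:**
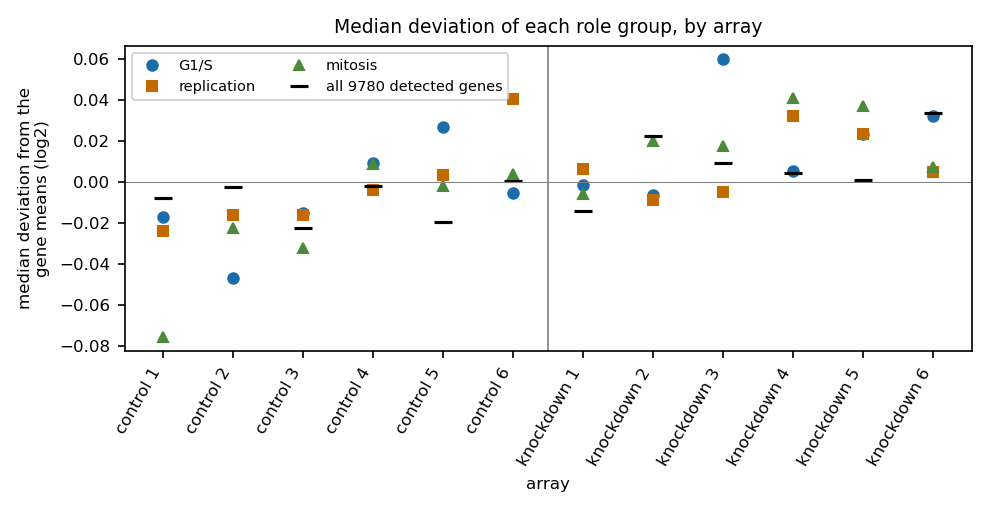
Median deviation from the gene means (vertical axis, log2 units) on each array (horizontal axis) for the 3 role groups (symbols) and for all 9780 detected genes (dashes). Control 1 has the lowest value, -0.08 for the mitosis genes, and the role groups of the control and knockdown arrays overlap.

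Other genes of the same pathways, in lists chosen with results of these data known, did not pass the test either. Of 113 such genes 105 were detected, and 0 of their 147 probes passed in limma after adjustment. Without adjustment 21 of them had a p under 0.05 (16 higher in the knockdown, 5 lower), or 14.3%, against 14.5% of all probes. Over all detected probes with such a p, 1454 were higher and 936 lower. The median log2 fold change of these genes was 0.02, that of all detected genes. In 3 of the 147 probes, those of CDKN1A, RBL1 and PIMREG, the groups did not overlap, or 2.04%, against 1.56% of all detected probes.

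Of the other G1/S regulators 19 of 22 were detected. At an unadjusted p under 0.05, 3 of their 28 probes were higher and 1 was lower, or 14.3%, against 14.5% of all probes. CDKN1A, which encodes p21, an inhibitor of cyclin-dependent kinases, lay at 9.02, 9.12 and 9.19 on the controls and at 9.28, 9.38 and 9.73 on the knockdown arrays, with every knockdown array above every control. Its log2 fold change was 0.34 ± 0.08 (SE; limma adjusted p = 0.104), or 0.22 with the number of detected probes as a covariate and 0.23 without knockdown 2 and 6. Under 3 of 24 alternatives it passed the threshold, and its adjusted p ran from 0.0424 to 0.636. The related inhibitor CDKN1B, a member of the set, had -0.20 in the same samples. RBL1, the retinoblastoma relative p107, lay between 7.82 and 8.02 on the controls and between 8.05 and 8.44 on the knockdown arrays, with 0.24 ± 0.08 (SE; adjusted p = 0.204 in limma), or 0.10 with the same covariate, 0.13 without knockdown 2 and 6 and 0.15 without background correction. TFDP2, a partner of E2F factors, had 0.31 on its dimmer and 0.09 on its brighter probe.

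Of the other replication genes 37 of 41 were detected. At an unadjusted p under 0.05, 3 of their 48 probes were higher and 2 lower, or 10.4%, against 14.5% of all probes. CHAF1B, a subunit of the chromatin assembly factor at replication forks, had 0.17 (limma adjusted p = 0.199), or 0.096 with the number of detected probes as a covariate. POLD2, a subunit of the lagging strand polymerase, had -0.12 on its brighter probe, 0.03 on the other, and 0.02 on the brighter one with scaling by the median alone. DUT, which removes deoxyuridine triphosphate, had 0.19 on the dimmest of its 3 probes and 0.04 and 0.07 on the others.

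Of the other mitosis genes 49 of 50 were detected. At an unadjusted p under 0.05, 10 of their 71 probes were higher and 2 lower, or 16.9%, against 14.5% of all probes. This difference in share was not tested. SMC4, a condensin subunit, had 0.28 (limma adjusted p = 0.0753) on its dimmest probe but 0.00 and 0.04 on the brighter ones. PIMREG lay between 9.90 and 9.99 on the controls and between 10.03 and 10.16 on the knockdown arrays, with 0.12 (adjusted p = 0.190 in limma). MAD2L1, a spindle checkpoint protein that acts with BUB1B, had -0.16 (limma adjusted p = 0.241), or -0.086 without knockdown 2 and 6, -0.10 with the covariate and -0.021 with scaling by the median alone.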

How the data were processed

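Sample titles gave the group and number of each sample, and the vectors come from the series' design text. The deposited table of non-normalised values held a linear signal intensity and a detection p-value per probe and array, per the file headers. The authors' processed table held intensities equal to a quantile normalisation of that signal, with a median of 188.8 in each array. Of tools, the submitters' processing notes list only limma, with no role, and what software made the signal and the detection p-values is not stated in the sources used here.

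Signals were background corrected and normalised with neqc of limma 3.58.1 in R 4.3.3 (negative controls inferred from detection p-values, offset 16, quantile normalisation, log2). The offset shrinks differences of dim probes, and a shift common to all probes is lost in the quantile step. Probes with a detection p under 0.05 on at least 6 of 12 arrays were kept, 16495 of 47323. Symbols of 30074 probes were taken from a RefSeq table of GRCh38.p14, whether or not they differed from the platform's symbols. Not named were 8 probes with several symbols, and 17202 were unnamed here. A gene was read from its detected probe with the highest mean. Groups were compared with lmFit and eBayes over all 12 arrays, two-sided, with Benjamini-Hochberg adjustment over all detected probes, and single genes also with an exact permutation test. The fit was tested on simulated data. Described in full were genes with an unadjusted p under 0.05 on any detected probe and the 3 smallest p-values of each role. The members, the roles and the other lists were chosen with earlier results of these data known. Same-numbered samples did not deviate together (correlations from -0.11 to 0.22, 1 of 6 arrays matching its own number best), so the replicate numbers were not used as pairs. Alternatives were 24: background correction, normalisation, the authors' processed values, detection filter, replicate block, number of detected probes, variance model, array weights and left-out arrays. No source used here gives the slides, and no batch was tested. Figures were drawn with matplotlib 3.10.9. The number of arrays limits the precision.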

Additional observations from a re-analysis of the deposited data

Results flagged for a closer look

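Of 124 groups of 6 values, a single sample lay apart from the other 5 in 4 (3.23%), by a gap to its neighbour above Dixon's critical share of the group's range. Chance flags about 1 in 20 groups. MCM3 had knockdown 6 at 12.83, with the next knockdown array at 12.67. RFC3 had knockdown 6 at 10.45, with the next at 10.26. TYMS had control 2 at 12.26, with the next control at 12.12. KIF11 had control 4 at 10.36, with the next control at 10.21.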

How the results depend on the processing

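Under all 24 alternatives 0 probes of the 53 genes passed the limma threshold, the smallest adjusted p being 0.0808 (CDKN1B, with detection on all arrays). Between 3 and 9 probes of the set had an unadjusted p under 0.05: 3 (4.48%) with the covariate, against 6.98% of all probes, and 9 (11.7%) without the detection filter, against 9.38%, the 1 alternative in which the set's share was the higher. Of the 48 genes 24, with all 9 described in full, kept the sign of their difference in every alternative that gave them a value, and 24 did not in at least 1. CDKN1B ran from -0.26 to -0.07. Median scaling put the medians of the G1/S, replication and mitosis genes at 0.15, 0.15 and 0.16, or 0.02, 0.02 and 0.03 above the median of all detected genes, 0.13; over the whole array it gave 11 calls in place of 50, and it turned POLD2 to 0.020. Cyclic loess gave 32 calls, no detection filter 11, the intensity trend with a robust fit 90 and leaving out knockdown 2 and 6 gave 2. With the number of detected probes as a covariate there were 0 calls in limma (1152 at an unadjusted p under 0.05). That number was itself higher on average in the knockdown, so the covariate and the group cannot be fully told apart. Leaving out single arrays gave 1 to 145 calls (145 without knockdown 1, 63 without control 6), and SMC4 on its brightest probe ran from -0.018 to 0.029, below 0 without control 1, control 5, knockdown 4 or knockdown 5. TIMP1, at -0.19, passed with detection on all arrays (adjusted p = 0.0449) and with the intensity trend (adjusted p = 0.0249). With the replicate number as a block 28 probes were called in place of 50, 0 of them of the set. The replicate numbers were not shown to pair the samples. The causes were not tested.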
